A study of Mus musculus with 11 samples.

Results

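The effect of rosiglitazone (ROS) on the mRNAs of differentiating fat cells was described at day 4 of differentiation by comparing 1 culture that received ROS with 1 culture that did not. A gene was measured when its FPKM, the abundance of a transcript scaled for its exon length and for the depth of the library, was at least 1 in either of the day 4 samples, and 12300 of the 29955 gene symbols in the files met this. Of these, 11213 were coding genes, and the other symbols were classed in the files as transcripts near coding genes (570), noncoding (419) or antisense (98). The cells were im-scWAT preadipocytes, which were derived from mouse inguinal subcutaneous white fat and immortalized with large T antigen, and neither sample had been transduced.

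ROS is a synthetic ligand of PPARγ, the nuclear receptor that drives preadipocytes to become fat cells. With its partner RXR, PPARγ binds DNA at direct repeats of a short half-site and switches on genes for the uptake, storage and oxidation of fatty acids, while genes of the fibroblast-like precursor are switched off as the cells mature. In subcutaneous fat cells, long exposure to ROS is also known to bring on genes of the thermogenic beige fat cell.

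Both groups were grown to confluence (day 0) and induced with indomethacin, dexamethasone, 3-isobutyl-1-methylxanthine, insulin and T3 for 2 days, after which only insulin and T3 were kept. The ROS plus group had 0.5 μM ROS in both media, and the ROS minus group never received it. Since the cocktail was otherwise shared, the comparison is between differentiation with and without ROS, and not between differentiated and undifferentiated cells. Day 0 and day 8 also had 1 sample with and 1 sample without ROS each. ROS was added only after confluence, so the pair of day 0 had not been exposed to different media, and the difference between its members was taken as the spread between samples.

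Each condition had 1 sample, so no difference at day 4 has a replicate check, and the verbs higher and lower below describe a pair of libraries. The depth behind the FPKM values was 5.06 Gb of mapped bases with ROS and 3.10 Gb without ROS at day 4, against 4.66 and 4.64 Gb at day 0, and 5.08 and 4.35 Gb at day 8. A transcript of 1 kb covered by 1000 mapped bases had an FPKM of 0.198 in the ROS plus sample of day 4 and 0.322 in the ROS minus sample. All ratios were taken as log2 of FPKM + 0.1, which understates the difference of low genes, and a positive value means higher with ROS.

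The difference at day 4 was small, and leaned towards genes that were lower with ROS. Of the 12300 genes, 41 (0.333%) were at least 2-fold higher with ROS and 96 (0.78%) were at least 2-fold lower, 137 (1.11%) in all. In the pair of day 0, 56 of 12009 genes (0.466%) were at least 2-fold higher in the sample labelled ROS plus and 11 (0.0916%) were at least 2-fold lower, 67 (0.558%) in all. Neither sample of day 0 had been treated, so which of its counts is called higher is arbitrary. The 96 lower genes of day 4 exceeded both counts of day 0, whereas the 41 higher genes lay between them. At day 8, 300 of 12493 genes (2.4%) were 2-fold higher with ROS and 1137 (9.1%) were 2-fold lower.

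The SD of the log2 ratios at day 4 was 0.30, which lies between 0.24 in the pair of day 0 and 0.64 at day 8. The median ratio at day 4 was -0.06, and 4950 genes were above 0 (40.2%). Lower genes outnumbered higher genes at every level of expression at day 4. Among genes that reached an FPKM of 50, 7 were 2-fold lower and 2 were 2-fold higher at day 4, against 0 lower and 1 higher at day 0. Among genes with an FPKM between 1 and 2, 37 were lower and 17 higher at day 4, against 9 lower and 25 higher at day 0. When the samples were rescaled so that the median gene did not differ, 50 genes were higher and 74 lower, and with upper quartile scaling 55 were higher and 67 lower, so that the share of higher genes among those past 2-fold went from 29.9% to 40.3% and 45.1%. limma, in which the untreated pair supplied the only estimate of error, placed 0 of 12844 genes under an adjusted p of 0.05 (smallest value 0.486), and 341 higher and 881 lower genes (9.51%) under an unadjusted p of 0.05.

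**Figure D1:**
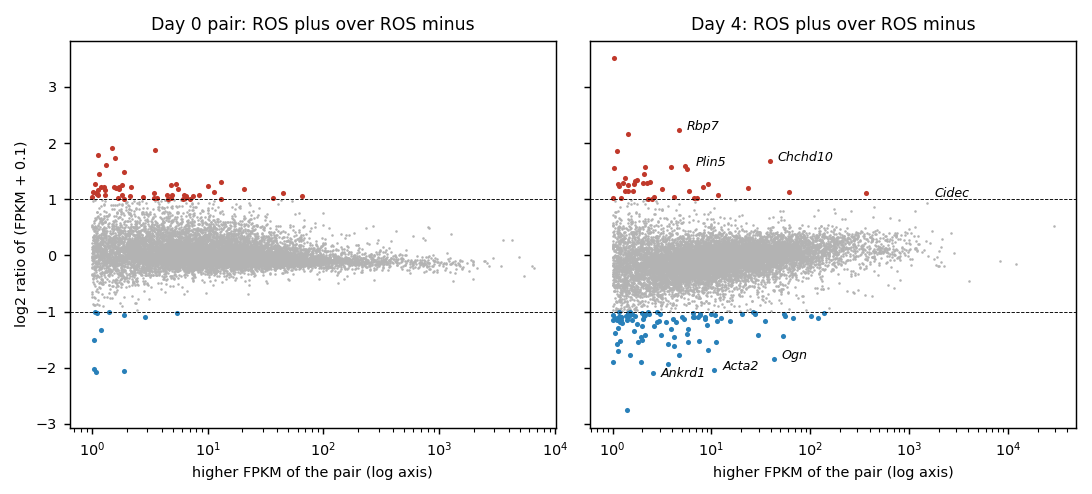
Log2 ratio of FPKM + 0.1 with ROS over without ROS (vertical axis) against the higher FPKM of the pair (horizontal log axis) for the pair of day 0 and for day 4. Each point is a gene with an FPKM of at least 1 in either sample, and coloured points are past 2-fold: 56 higher (red) and 11 lower (blue) at day 0, and 41 higher and 96 lower at day 4.

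The genes with the largest positive ratio had varied known roles. Rbp7, a cytosolic retinoid-binding protein (chr4:148823811-148829077 in mm9), had the highest ratio of the coding genes, with an FPKM of 4.72 with ROS and 0.92 without ROS at day 4, 0.144 and 0.0725 at day 0, and 81.0 and 1.62 at day 8. Chchd10, a protein of the mitochondrial intermembrane space (chr10:75398160-75400479), had 39.3 and 12.2 at day 4, 0.535 and 0.446 at day 0, and 310 and 42.0 at day 8. Plin5, which coats lipid droplets in oxidative tissues (chr17:56251024-56256971), had 5.73 and 1.90 at day 4, 0.0989 and 0.0996 at day 0, and 31.4 and 2.66 at day 8. All of these were nearly silent in preadipocytes, were already present in differentiating cells without ROS, and were further apart at day 8 than at day 4. Their log2 ratios at day 4 were 2.24 for Rbp7, 1.67 for Chchd10 and 1.54 for Plin5, against 0.50, 0.22 and 0.00 at day 0.

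Several others of the 15 coding genes with the highest ratio bear on lipid, glycogen or hormone handling. Apoc4, an apolipoprotein, was listed at 0 in both day 0 samples and had an FPKM of 5.45 with ROS and 1.73 without ROS at day 4 (log2 ratio 1.60). Gcgr, the glucagon receptor, had 1.10 and 0.233 (1.85), and Gys2, the liver form of glycogen synthase, had 1.16 and 0.434 (1.23). These values are close to the minimum FPKM, and with a pseudocount of 1 the ratios of Gcgr and Gys2 were 0.77 and 0.59. Egln3, a prolyl hydroxylase that marks hypoxia-inducible factors for breakdown, had 8.17 and 3.46 (1.21), and Pik3ap1, an adaptor of phosphoinositide 3-kinase, had 9.16 and 3.73 (1.27). Arhgef37, a guanine nucleotide exchange factor (1.57), P2rx1, an ATP-gated channel (1.55), Paqr9 (1.30), Far2, a fatty acyl-CoA reductase (1.25), and the transcript AK216857 (1.31) completed the group together with Cldn10 and Hist1h4c. Of these, P2rx1, with 1.04 and 0.289, and Far2, with 1.44 and 0.549, were also close to the minimum FPKM. Among the 41 higher genes, 17 had an FPKM below 2 in both samples and 5 reached 10. Other genes of the 41, chosen after their values were seen, were Tusc5 (23.4 and 10.1), Mrap, an accessory protein of melanocortin receptors (61.3 and 28.0), Slc25a34, a mitochondrial carrier (7.19 and 3.50), and Niacr1, the nicotinic acid receptor of fat cells (3.15 and 1.33). The noncoding transcripts AK015782 and AK018990 both appear among the 41 but were counted from the same mapped bases, so they stand for 1 signal.

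**Figure D2:**
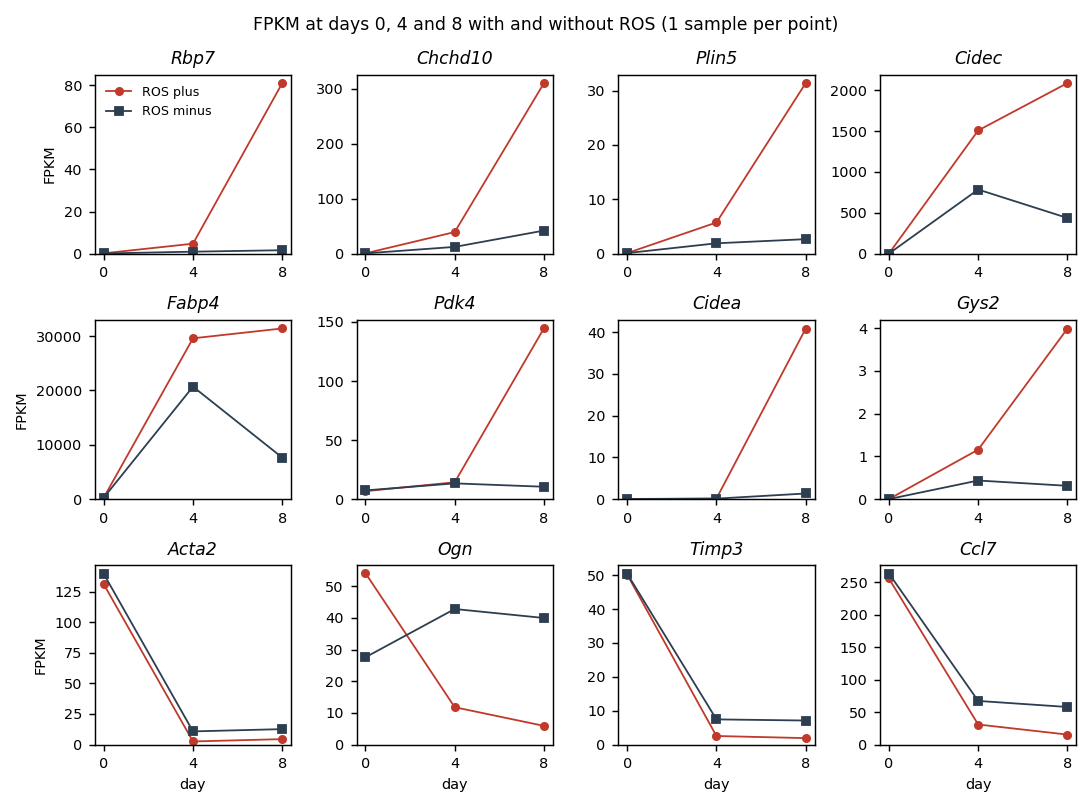
FPKM (vertical axis, linear from 0) of 12 genes at days 0, 4 and 8 (horizontal axis) with ROS (red circles) and without ROS (dark squares), 1 sample per point with no error bar. Rbp7, Chchd10 and Plin5 separated at day 4 and further at day 8, Pdk4 and Cidea separated only at day 8, and Acta2 and Ccl7 were lower at day 4 than at day 0 in both conditions and lower still with ROS.

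The genes with the largest negative ratio were headed by Ankrd1, Acta2 and Ctgf. Ankrd1, an ankyrin repeat protein induced by cell tension (chr19:36186455-36194334), had an FPKM of 0.523 with ROS and 2.56 without ROS at day 4, 28.8 and 28.6 at day 0, and 0.795 and 2.67 at day 8. Acta2, smooth muscle actin (chr19:34315581-34329826), had 2.52 and 10.7 at day 4, 131 and 140 at day 0, and 4.43 and 12.6 at day 8. Ctgf, a secreted matricellular factor (chr10:24315248-24318488), had 0.881 and 3.64 at day 4, 50.5 and 55.1 at day 0, and 2.71 and 4.50 at day 8. These genes had nearly equal levels in the samples of day 0, were far lower in both samples of day 4, and were lowest in the culture with ROS. Their log2 ratios at day 4 were -2.09, -2.05 and -1.93.

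Myl9, a regulatory light chain of myosin (chr2:156601200-156607393), followed the same course with 2.82 and 9.35 at day 4 and 36.4 and 42.6 at day 0 (-1.69), as did Timp3, an inhibitor of matrix proteases, with 2.52 and 7.43 at day 4 and 50.2 and 50.4 at day 0 (-1.52), and Crabp1, which binds retinoic acid, with 0.372 and 1.51 at day 4 and 22.8 and 25.2 at day 0 (-1.77). Not every gene of the group followed that course. Ogn, the matrix proteoglycan osteoglycin (chr13:49703440-49719869), had 11.8 with ROS and 42.8 without ROS at day 4 (-1.85), 5.89 and 40.0 at day 8, and 54.1 and 27.6 at day 0, so that the samples of day 0 differed by 0.97 in the opposite direction. Mmp3, stromelysin, had 1.30 and 4.70 (-1.78), and Adm, the peptide hormone adrenomedullin, had 3.77 and 11.2 (-1.55). Other genes among the 15 lowest, classed as coding by the annotation, were Cd24a (-1.61), Fam105a (-1.57), Dnm3os (-1.54), Sytl5 (-1.52) and Ccl11, the chemokine eotaxin (-1.50). At day 0, 73 of the 96 lower genes and 11 of the 41 higher genes reached an FPKM of 1 in either sample. Below 0.1 in both samples of day 0 were 6 of the lower and 17 of the higher genes. For scale, 12009 genes reached an FPKM of 1 at day 0 and 12300 at day 4. The shares over all measured genes were not worked out, so these counts only compare the higher with the lower genes.

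Promoter sequences were taken from RefSeq (build GRCm38.p6, a different build from the mm9 of the expression files). They were matched to 23 of the 41 higher and 53 of the 96 lower genes by transcript accession, or else by symbol or synonym. The first promoter listed of each gene was used. The sequences are shown because the ligand acts through a factor that binds DNA. Each window runs from 250 bases before to 50 bases after the start of the gene. The half-site of nuclear receptors, AGGTCA on either strand, was in 7 of the 23 higher (30.4%) and 2 of the 53 lower promoters (3.77%), and in 16.0% of all 27025 promoters. The binding element of PPARγ with RXR in a relaxed form (AGGNCA repeated with 1 base between), which can overlap the half-site, was in 0 of the 23 and 0 of the 53, and in 0.381% of all promoters. The TEAD motif, GGAATG on either strand, was in 8.70% of the higher, 11.3% of the lower and 14.6% of all promoters. The CArG box, to which serum response factor (SRF) binds, was searched for only in its strict form, CCWWWWWWGG with W for A or T. It was in 4.35%, 3.77% and 1.57%. A match only describes the letters in this window.

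The promoters of 2 higher and 2 lower genes, chosen after their values and matches were seen, are given 5′ to 3′ on the strand of the gene. Only windows with a match are printed. The windows of Rbp7, searched for the half-site, and of Acta2, searched for the strict CArG box, held no match. The window of Acta2 does hold stretches close to the strict box, ccctatatgg and ccttgtttgg, which were not counted. Capitals mark the half-site, in either orientation, in Chchd10 (chr10:75932880-75933179, plus strand) and Plin5 (chr17:56117499-56117798, minus strand), the TEAD motif in Ankrd1 (chr19:36119795-36120094, minus strand) and the CArG box in Myl9 (chr2:156775214-156775513, plus strand).
Chchd10: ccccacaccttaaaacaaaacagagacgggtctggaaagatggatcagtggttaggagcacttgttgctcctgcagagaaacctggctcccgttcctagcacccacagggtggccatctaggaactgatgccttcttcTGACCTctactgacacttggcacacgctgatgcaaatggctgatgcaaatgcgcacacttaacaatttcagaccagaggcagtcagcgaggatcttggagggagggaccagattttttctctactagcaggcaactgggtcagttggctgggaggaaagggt
Plin5: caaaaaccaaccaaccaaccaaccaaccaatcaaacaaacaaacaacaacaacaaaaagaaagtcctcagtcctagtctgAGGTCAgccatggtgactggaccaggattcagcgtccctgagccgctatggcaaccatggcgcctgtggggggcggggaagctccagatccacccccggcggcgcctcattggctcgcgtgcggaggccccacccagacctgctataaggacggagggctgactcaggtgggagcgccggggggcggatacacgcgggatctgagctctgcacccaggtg
Ankrd1: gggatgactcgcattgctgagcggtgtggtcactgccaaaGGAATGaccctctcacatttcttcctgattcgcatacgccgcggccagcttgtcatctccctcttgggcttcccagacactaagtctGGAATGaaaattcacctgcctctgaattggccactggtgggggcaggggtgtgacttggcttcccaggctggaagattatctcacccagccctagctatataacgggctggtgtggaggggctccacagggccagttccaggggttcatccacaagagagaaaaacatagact
Myl9: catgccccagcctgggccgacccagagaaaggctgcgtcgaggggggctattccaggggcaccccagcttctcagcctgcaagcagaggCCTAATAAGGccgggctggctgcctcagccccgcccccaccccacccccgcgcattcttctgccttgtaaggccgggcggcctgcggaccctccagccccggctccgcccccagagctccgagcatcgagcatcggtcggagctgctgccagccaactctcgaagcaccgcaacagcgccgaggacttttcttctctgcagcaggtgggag

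The gene lists, each of known members of a pathway or cell type, showed median shifts that were all below 2-fold. Some lists lay almost wholly on 1 side of 0, and others, such as the cell cycle genes with 21 above and 18 below, split both ways. They are described by the number of measured genes past 2-fold (against 0.333% higher and 0.78% lower of all genes), by the number above 0 and by the median log2 ratio (against -0.06 for all genes). Genes can be in more than 1 list.

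The PPAR-regulated lipid genes, which take up, store and release fatty acids, were higher with ROS as a list. Of 38 genes, 33 were measured, 29 were above 0 and the median was 0.42, with -0.06 in the pair of day 0 and 1.27 at day 8. Plin5 alone was 2-fold higher at day 4 (with Cidec under either other scaling), whereas 19 of the 33 were 2-fold higher at day 8. Cidec, which enlarges lipid droplets, had an FPKM of 1507 with ROS and 784 without ROS (0.94), and Cd36, the fatty acid transporter, had 256 and 148 (0.79). Aqp7, the glycerol channel, had 10.6 and 5.85 (0.84), and Angptl4, a secreted inhibitor of lipoprotein lipase, had 225 and 144 (0.65). The difference in Fabp4, the fatty acid-binding protein of fat cells and the most abundant transcript of the list, was 29590 against 20694 (0.52). Cidec and Cd36 were below 0.2 at day 0, so that their value without ROS was already far above that of preadipocytes, whereas Angptl4 had 61.5 and 68.5 there.

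Not all known targets were higher at day 4. Lpl, lipoprotein lipase, had 1032 with ROS and 1083 without ROS (-0.07), and Cpt1a, the gate of fatty acid entry into mitochondria in liver, had 14.8 and 14.9 (-0.01). Pdk4, the kinase that turns off pyruvate dehydrogenase, had 14.2 and 13.3 at day 4 (0.10), but 145 and 10.4 at day 8 (3.78). Fabp3 and Ucp3 were under 0.1 at day 4 with and without ROS and so were not measured, although their ratios at day 8 were 4.00 and 3.42.

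Genes of mitochondrial energy metabolism were higher with ROS by small and even amounts. All 54 genes of the respiratory chain and ATP synthase were measured and all 54 were above 0 at day 4, none by 2-fold, with a median of 0.31. In the pair of day 0, 4 of the 54 were above 0 and the median was -0.09. At day 8 the median was 0.60. Cycs, cytochrome c, had 362 with ROS and 259 without ROS (0.48), and Ndufb5, a subunit of complex I, had 142 and 104 (0.45). All 18 genes of the TCA cycle were above 0 (median 0.26), including Cs, citrate synthase, with 550 and 422 (0.38). Of the 32 measured genes of fatty acid oxidation, 31 were above 0 (median 0.31, with 0.96 at day 8), among them Cpt1b, the muscle form of the mitochondrial fatty acid gate, with 3.61 and 1.91 (0.89), and Acads, a short-chain acyl-CoA dehydrogenase, with 94.7 and 65.7 (0.53).

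The respiratory chain genes were also short, with a median exon length of 765 bases, and ratios at day 4 depended on exon length. Among coding genes, the median log2 ratio was 0.12 for transcripts of up to 500 bases and decreased in each longer class to -0.18 for those over 5000 bases. In the pair of day 0 the order was the opposite, from -0.11 to 0.09. With each ratio centred on the median of its length class, an alternative chosen after the data were seen, the median of the respiratory chain genes was 0.24, that of the TCA cycle 0.26 and that of fatty acid oxidation 0.31. The part of transcript length in these shifts was not tested further.

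**Figure D3:**
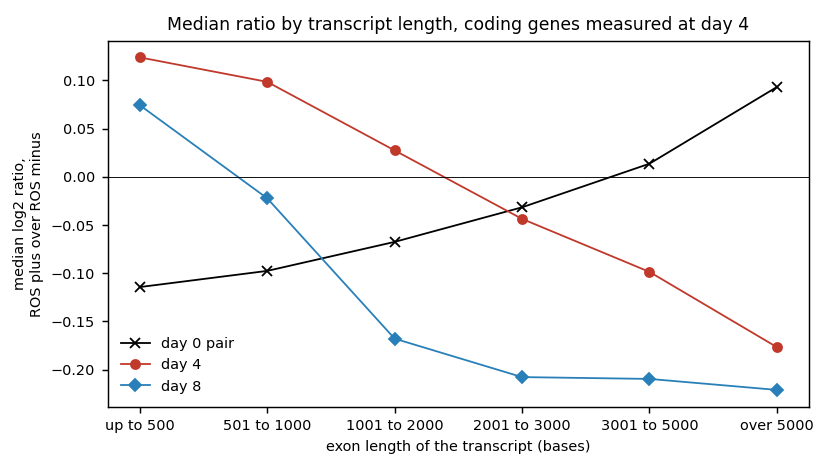
Median log2 ratio with ROS over without ROS (vertical axis) of coding genes in 6 classes of exon length in bases (horizontal axis), for the pair of day 0 (crosses), day 4 (circles) and day 8 (diamonds). The medians went from 0.12 down to -0.18 at day 4 and from -0.11 up to 0.09 in the pair of day 0.

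Genes of beige and brown fat were only in part expressed at day 4. Of 32 genes, 18 were measured, 14 of them were above 0 and the median was 0.33, against 1.29 at day 8 and 0.00 at day 0. Ucp1, the uncoupling protein that makes these cells thermogenic, was 0.036 with ROS and listed at 0 without ROS at day 4, and was 9.90 and 0.097 at day 8. Cidea, a lipid droplet protein that marks brown and beige fat, was 0.118 and 0.110 at day 4, and 40.8 and 1.34 at day 8. Prdm16, the coregulator of brown fat identity, was 0.0464 and listed at 0. These defining genes of beige fat were thus all far below the minimum FPKM at day 4, and no difference was read from them there. The log2 ratios of Ucp1 and Cidea were 5.67 and 4.83 at day 8. Prdm16 stayed low at day 8 as well, at 0.143 and 0.0189.

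Others of the list differed at day 4 already. Fgf21, a hormone secreted by fat and liver, had 6.61 with ROS and 3.20 without ROS (1.02), but the samples of day 0, at 0.270 and listed at 0, also differed. Gys2 was the only other gene of the list past 2-fold, and with a pseudocount of 1 neither was. Ppara, the PPAR of oxidative tissues, had 1.57 and 0.988 (0.62) at day 4 and 9.77 and 2.28 (2.05) at day 8. Ppargc1a, the coactivator of mitochondrial genes, had 2.18 and 2.16 (0.01). S100b, a calcium-binding protein, was lower with ROS, at 0.651 and 1.21 (-0.81). Kdm3a, which encodes the histone demethylase JMJD1A that the study is about, had 15.1 and 15.8 (-0.07).

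Transcription factors of fat cell differentiation had about the same level in both samples. Of 17 measured factors, 7 were above 0 and the median was -0.04, a sign that turned positive under both other scalings and under length centring, and none was 2-fold higher. Pparg itself had 115 with ROS and 136 without ROS (-0.25), after 19.0 and 19.3 at day 0, and Rxra, its partner, had 53.3 and 54.4 (-0.03). Cebpa, a factor of late differentiation, had 270 and 244 (0.14). Klf4, a factor of early differentiation, was 2-fold lower with ROS, at 2.30 and 5.04 (-1.10, and under 2-fold when centred by length or with a pseudocount of 1), and Cebpd had 16.4 and 24.0 (-0.55). The fat cell markers, of which 14 of 15 were measured, had a median of 0.35. Adipoq, adiponectin, had 1126 with ROS and 881 without ROS (0.35), and Cfd, adipsin, was lower with ROS, at 220 and 360 (-0.71). Both cultures therefore carried strong fat cell transcripts at day 4.

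Secreted proteins of fat cells other than adiponectin tended to be lower. Of 17 measured, 3 were above 0, with a median of -0.23. Adm and Igf1, insulin-like growth factor 1 with 1.36 and 2.84 (-1.01), were past 2-fold, of which Igf1 was under it in each alternative that was run on single genes. Synthesis of triglycerides and fatty acids had a median of 0.20 over 25 genes, led by Gpd1, which makes glycerol phosphate, with 1140 and 657 (0.80), and Agpat2, the acyltransferase of phosphatidic acid, with 796 and 513 (0.63), whereas Elovl6, a fatty acid elongase, had 1.73 and 2.61 (-0.57). The 27 genes of glucose uptake, glycolysis and insulin signalling had a median of 0.23, with Aldoa, aldolase, at 1157 and 813 (0.51). At day 8 the medians of these lists were 0.10 and 0.03.

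Sterol genes were led by Insig1, which holds the precursor of the sterol-sensing factor SREBP in the endoplasmic reticulum. Its FPKM was 367 with ROS and 170 without ROS at day 4 (1.11), 63.9 and 67.7 at day 0, and 313 and 90.4 at day 8. It was the most abundant of the 41 higher genes. Lss, the enzyme which closes the sterol ring, had 49.5 and 28.7 (0.79). The median over 23 genes was 0.13.

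**Figure D4:**
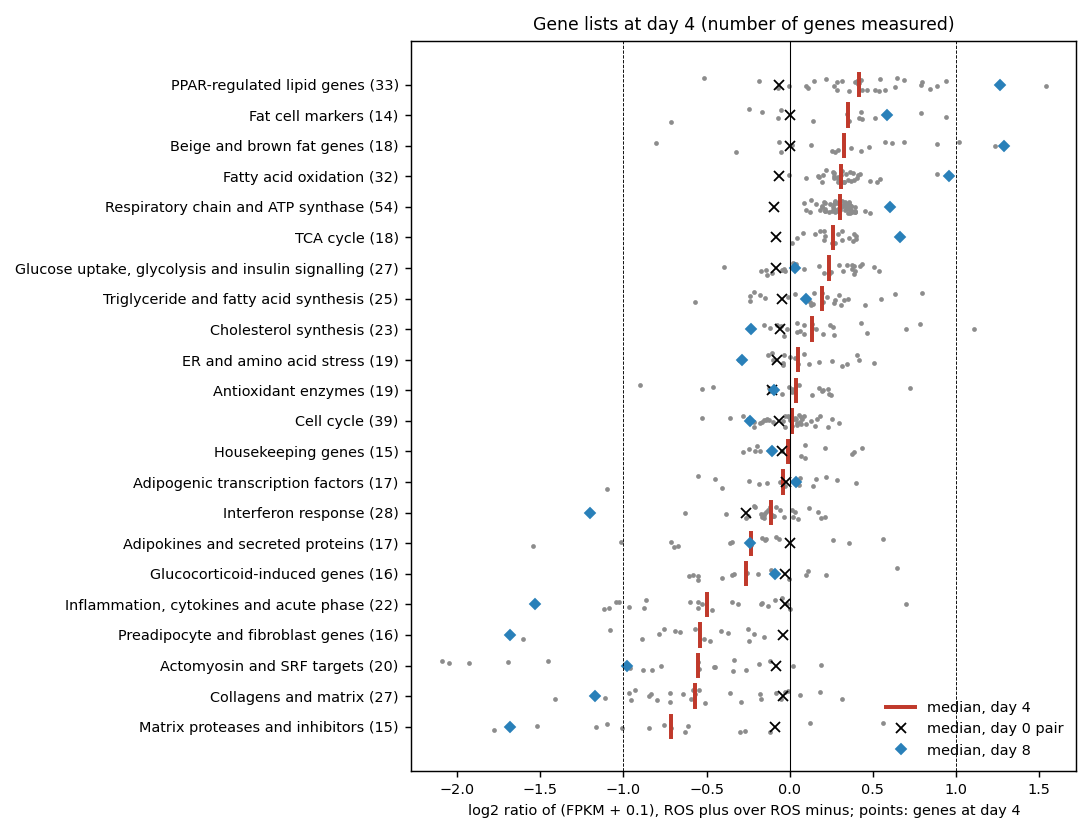
Log2 ratio with ROS over without ROS at day 4 of each measured gene (grey points) in 22 gene lists, with the list's median at day 4 (red bar), in the pair of day 0 (cross) and at day 8 (diamond); the number of measured genes is in parentheses and dashed lines mark 2-fold. Medians at day 4 went from 0.42 for PPAR-regulated lipid genes to -0.72 for matrix proteases and inhibitors, and those of the day 0 pair from 0.00 to -0.26, the lowest being the interferon response.

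Genes of the preadipocyte, its matrix and its cytoskeleton were lower with ROS. All 16 measured preadipocyte and fibroblast genes were below 0, with a median of -0.54 at day 4, -0.04 in the pair of day 0 and -1.68 at day 8. Thy1, a surface marker of fibroblasts, had 0.939 with ROS and 2.10 without ROS (-1.08), Pdgfrb, a growth factor receptor of mural cells and preadipocytes, had 9.34 and 16.2 (-0.79), and Sfrp1, a secreted WNT inhibitor, had 1.61 and 3.06 (-0.89). In a bulk sample a smaller number of undifferentiated cells and less of these RNAs per cell cannot be told apart.

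Of 27 measured collagens and matrix genes, 24 were below 0, and the median was -0.57 at day 4 and -1.17 at day 8. Thbs1, thrombospondin 1, had 11.1 with ROS and 29.6 without ROS (-1.41), and Lox, the enzyme that crosslinks collagen, had 55.8 and 121 (-1.11). Col1a1 and Col3a1, the fibrillar collagens, had 90.8 and 132 (-0.54) and 172 and 269 (-0.64), while Col4a1 and Col4a2, of the basement membrane, had 229 and 242 (-0.08) and 126 and 130 (-0.05). Matrix genes have long transcripts (median exon length 5564 bases), and centred by length class their median was -0.40. Among 15 measured matrix proteases and inhibitors, the median was -0.72 (-0.62 centred) and 5 were 2-fold lower, namely Mmp3, Timp3, Adamts1, Adamts2 and Adamts5. With either other scaling 4 were, and with a pseudocount of 1 or centred by length 3 were.

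Of 20 measured actomyosin genes and targets of SRF, 18 were below 0, with a median of -0.55 (-0.45 centred) at day 4, -0.08 in the pair of day 0 and -0.98 at day 8. Ankrd1, Acta2, Ctgf and Myl9 were past 2-fold, as was Tagln, which binds actin in smooth muscle, with 0.646 and 1.94 (-1.45). Srf itself had 6.41 and 7.71 (-0.26), and Vcl, vinculin, had 71.5 and 70.5 (0.02). Actb, cytoplasmic actin, had 366 and 445 (-0.28), and the 15 housekeeping genes had a median of -0.01, the sign of which also depended on the scaling.

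Genes of inflammation were lower with ROS at day 4, whereas those of the interferon response hardly differed. Of 22 measured cytokines, chemokines and acute phase genes, 2 were above 0 and the median was -0.50 (-0.43 centred), against -0.03 in the pair of day 0. Past 2-fold were 4, which became 2 with median ratio and 1 with upper quartile scaling. Ccl7 and Ccl2, chemokines that draw monocytes, had 30.9 with ROS and 67.2 without ROS (-1.12) and 48.3 and 103 (-1.08). Csf1, the macrophage growth factor, had 26.5 and 54.7 (-1.04), and Hp, haptoglobin, had 67.4 and 137 (-1.03). The chemokines and Csf1 were several-fold lower in both samples of day 4 than at day 0, where Ccl7 had 256 and 264, while Hp had appeared with differentiation from 0.0477 and 0.207. The 28 interferon response genes had a median of -0.11 at day 4 and -1.20 at day 8, with 0 past 2-fold at day 4 and 20 lower by 2-fold at day 8. Ifit1 had 56.5 and 67.8 at day 4 (-0.26), and 37.3 and 133 at day 8 (-1.84). The difference between the days was not tested.

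The 39 measured cell cycle genes had a median of 0.01, and none was past 2-fold. Mki67, a proliferation marker, had 14.5 with ROS and 18.7 without ROS (-0.36), and Rrm2, a subunit of ribonucleotide reductase, had 59.9 and 48.8 (0.30). In the untreated pair of day 0, Mki67 differed more and in the opposite direction, at 44.8 and 20.5 (1.12). Only 12 of the 39 genes had a larger absolute ratio at day 4 than at day 0. Glucocorticoid-induced genes had a median of -0.26 over 16 genes, of which 4 were above 0. Errfi1 had 202 and 308 (-0.61) and Zbtb16 had 6.14 and 9.24 (-0.58). The largest absolute ratio, that of Angptl4 with 225 and 144 (0.65), was in the other direction.

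Markers of macrophages and endothelium were at or near 0, while some muscle and bone markers were not. Of 13 macrophage markers, 8 were listed at 0 in both samples of day 4, among them Ptprc and Emr1, and the summed FPKM of the list was 2.09 with ROS and 1.89 without ROS. Cd68, a lysosomal protein, was 2-fold higher with ROS at 1.21 and 0.541 (1.03), a call that was lost with a pseudocount of 1 and with the other choice of transcript, and Cd14 had 0.851 and 1.28 (-0.54). None of 10 endothelial markers was measured, and their sum was 0.443 and 0.663. Of 12 muscle markers, 8 were listed at 0, and the sum was 4.92 and 5.59, most of it from Des. Of 13 bone and cartilage markers found, 3 were measured and 4 were at 0 in both samples, with sums of 35.4 and 39.1, most of it from Alpl and Spp1.

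The direction of the difference went with that between days 0 and 8 without ROS for genes that were lower at day 8, and only weakly for those that were higher. Of the measured genes, 2120 were at least 2-fold higher at day 8 than at day 0 in the ROS minus samples, and 57.1% of these were higher with ROS at day 4, with a median of 0.05. A further 1025 genes were at least 2-fold lower at day 8 than at day 0, and 17.1% of these were higher with ROS at day 4, with a median of -0.27 (-0.20 centred by length). The other 9155 genes had a median of -0.06. The class lower at day 8 held 42 of the 96 lower genes (4.1% of the class) and 4 of the 41 higher genes (0.39%). The class higher at day 8 held 30 of the 41 higher genes (1.4% of the class). It also held 25 of the lower genes (1.2%), Hp among them. Over all measured genes the shares were 0.333% higher and 0.78% lower, so this class exceeded both. This grouping used samples of days 0 and 8, none of which enters the ratio of day 4.

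The ratios of day 4 and day 8, which come from separate samples, were related. Over the 12300 genes Pearson's r was 0.54 and Spearman's rho was 0.49, given as a description across genes. Both were the same to 2 decimals when the ratios were centred by length. With the pair of day 0, which also shares no sample, r was -0.28, and it was -0.22 when the ratios were centred by length. Exon length varied with both ratios (rho -0.33 at day 4 and 0.35 at day 0 over 11213 coding genes). Of the 41 higher genes of day 4, 33 were also above 0 at day 8 and 24 were 2-fold higher, whereas 2.03% of all measured genes were 2-fold higher then. Of the 96 lower genes, 90 were below 0 and 68 were 2-fold lower at day 8, against 8.2% of all measured genes.

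Genes chosen by their difference at day 8 mostly had the same sign at day 4 but were rarely past 2-fold. Of the 300 genes that were 2-fold higher with ROS at day 8, 242 were measured at day 4, and 213 of these (88.0%) were above 0, with a median of 0.36, and 20 were past 2-fold. Of the 1137 genes that were 2-fold lower at day 8, 971 were measured at day 4, 887 of these (91.3%) were below 0, with a median of -0.40, and 59 were past 2-fold. Of all 12300 genes, 40.2% were above 0, and 0.333% and 0.78% were past 2-fold. For single genes in the pair of day 0, the 95th percentile of the absolute ratio was 0.52. That value does not measure the spread of a median over many genes. Of the higher genes none, and of the lower genes 1, was past 2-fold in the opposite direction at day 4.

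**Figure D5:**
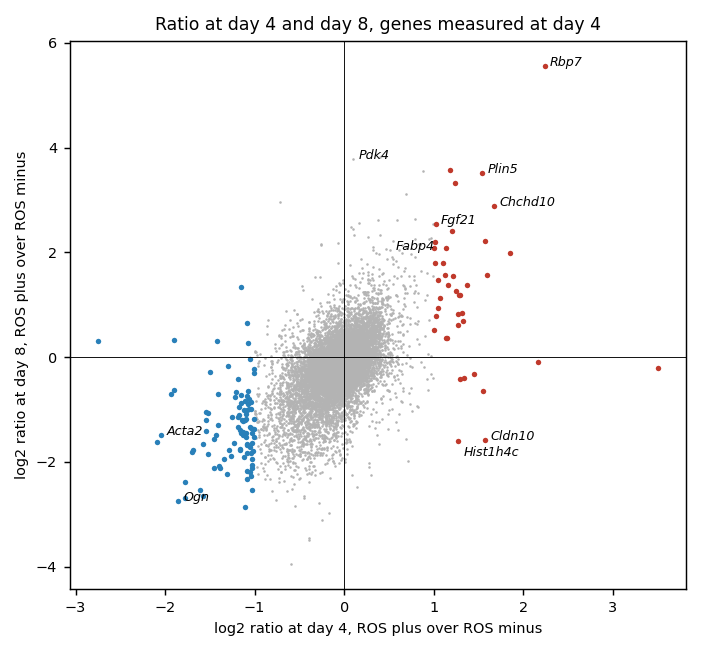
Log2 ratio with ROS over without ROS at day 8 (vertical axis) against day 4 (horizontal axis) for the 12300 genes measured at day 4, 1 point per gene, with genes past 2-fold at day 4 in red (41 higher) and blue (96 lower). Most coloured points lie in the quadrants of equal sign, Pdk4 differs only at day 8, and Cldn10 and Hist1h4c lie on opposite sides at the different days.

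The minimum FPKM divides genes that hardly differ. Ccl8, at 0.462 with ROS and 1.00 without ROS, and Klra4, at 0.488 and 1.00, were just inside it, and Tmem88b, at 0.998 and 0.551, and Bace2, at 0.611 and 1.00, were just outside.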

How the data were processed

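RNA-seq of untransduced im-scWAT cells at days 0, 4 and 8, with and without ROS, was analysed (6 of 11 samples, 1 per condition, grouped by the labels). The authors prepared TruSeq libraries, sequenced them on an Illumina HiSeq, aligned the reads to UCSC transcripts and mm9 with Burrows-Wheeler aligner, refined the alignment locally with an in-house aligner, and worked out FPKM by strand. For 55419 transcripts on each strand, the authors deposited the FPKM, its log10 and log2, and a signal (coverage) in mapped bases, and did not pool replicates. The depth of 3.10 to 5.08 Gb per sample was worked out from the mapped bases and FPKM. Because bases rather than reads were counted, no count test was used and no counting interval can be given.

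The sense row that the files mark as representative stood for each symbol. Ratios were taken as log2(FPKM + 0.1) for genes that reached an FPKM of 1 in either sample, and 2-fold was used to count differences. limma 3.58.1 (R 4.3.3) with Benjamini-Hochberg adjustment was an alternative, with 1 residual degree of freedom from the pair of day 0. The limma script was tested on simulated data whose spread depended on the level of a gene alone, which says nothing of its power on these samples. Genes named are the 15 coding genes with the highest and the 15 with the lowest ratio, the 4 with the largest ratio in each of 26 lists, and 15 fixed genes. Others were chosen after their values were seen. Some genes that this rule names are not reported here. The members and lists were chosen with earlier results of these data known. Of 630 list entries, 629 were found. Python 3.11.15, numpy 2.4.6, pandas 2.3.3 and matplotlib 3.10.9 were used. Alternatives varied the fold, the scaling, the pseudocount, the minimum FPKM and the transcript. For day 8, the labels state that ROS was withdrawn on day 7, whereas the methods for this cell line state that it was kept, so values of day 8 are given as with and without ROS only.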

Additional observations from a re-analysis of the deposited data

Results flagged for a closer look

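Of the genes past 2-fold with ROS at day 4, the coding genes Cldn10 and Hist1h4c were past 2-fold in the opposite direction at day 8. Cldn10, a tight junction protein, was listed at 0 in both samples of day 0, had an FPKM of 2.11 with ROS and 0.64 without ROS at day 4 (log2 ratio 1.58), and 0.118 and 0.55 at day 8 (-1.57). Both of its values at day 8 are below the minimum FPKM, so its ratio there is uncertain. Hist1h4c, a histone H4 gene, had 1.13 and 0.409 at day 4 (1.27) and 0.562 and 1.90 at day 8 (-1.59), after 0.816 and 0.888 at day 0. Histone genes are near-identical copies that share reads, so its value is uncertain. Each day had 1 sample per condition, and the difference between the days was not tested.

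Antisense rows of the files were not used above. Of 858 antisense rows with an FPKM of at least 1 in either sample of day 4, 13 (1.515%) were at least 2-fold higher and 16 (1.865%) at least 2-fold lower with ROS. In the pair of day 0 these were 8 (0.957%) and 14 (1.675%) of 836, and at day 8 they were 5.32% and 7.6%. The excess over the pair of day 0 was not tested.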

How the results depend on the processing

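The counts of 41 higher and 96 lower genes depended on how low values were treated. They were 180 and 309 with a minimum FPKM of 0.1, 180 and 309 without a minimum, and 12 and 37 with a minimum of 5. They were 11 and 28 with a pseudocount of 1, 161 and 610 at 1.5-fold, 6 and 12 at 3-fold, and 0 and 0 in limma at an adjusted p of 0.05. Lower genes outnumbered higher genes under each of these but limma. Without a pseudocount they were 48 and 126, with the transcript of the highest mean FPKM (another transcript for 6014 symbols) 42 and 104, with median ratio scaling 50 and 74, with upper quartile scaling 55 and 67, and centred by exon length, chosen after seeing the data, 41 and 86. The pair of day 0 had 219 and 105 with a minimum of 0.1, 19 and 1 with a minimum of 5, 8 and 1 with a pseudocount of 1, 401 and 53 at 1.5-fold, and 5 and 3 at 3-fold. The direction is arbitrary in that untreated pair. Under each of these settings the lower genes of day 4 outnumbered those of day 0 in either direction. The higher genes of day 4 did so only with a pseudocount of 1 and at 3-fold. The scalings shifted all ratios by 0.0596 and 0.0864. Of 610 recomputed ratios of named genes, 577 moved by less than the spread of the day 0 pair, and 8 changed sign, all in Lpl, Rxra and Kdm3a, whose ratios lay within 0.0694 of 0. Of 26 list medians, those of the adipogenic transcription factors and housekeeping genes changed sign. No paired analysis was possible because each condition had 1 sample, and no replicate could be left out. The depth of 3.10 Gb without ROS limits genes with an FPKM near 1.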

Other observations

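Within the list of endoplasmic reticulum and amino acid stress, the largest ratios at day 4 included those of Asns, Psat1 and Phgdh. Asns, asparagine synthetase, had an FPKM of 181 with ROS and 127 without ROS (log2 ratio 0.51), Psat1 had 432 and 323 (0.42), and Phgdh, the first enzyme of serine synthesis, had 234 and 177 (0.40). Hspa5, the chaperone BiP, had 269 and 269 (0.00), its partner Dnajb9 had 24.4 and 19.6 (0.31), and Ddit3, the stress factor CHOP, had 75.6 and 81.2 (-0.10). The median of all 19 genes was 0.05. The 3 enzymes were set apart after their values were seen. At day 8 their ratios were 0.08, 0.14 and -0.31.

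The 19 antioxidant enzymes had a median of 0.04 and none was past 2-fold. Gsta4, which conjugates lipid aldehydes to glutathione, had 4.85 and 2.90 (0.73) at day 4 and 2.48 and 4.04 (-0.69) at day 8. The secreted peroxidase Gpx3 had 1.82 and 3.48 (-0.90) at day 4 and 3.35 and 10.5 (-1.62) at day 8.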
